A study of Mus musculus with 44 samples.

Results

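Muscle macrophages (MFs) labelled Ly6C+ F4/80low from Pparg-knockout (KO) mice were compared between day 2 and day 1 after muscle injury, over all genes of the array. The members were the 5 day 2 and the 4 day 1 arrays whose titles carry the KO genotype, that surface phenotype and no treatment, 9 of the 44 arrays of the series. Injury was made with cardiotoxin (CTX), a snake toxin that kills muscle fibres, in the tibialis anterior. Magnetic beads took the hematopoietic (CD45+) cells from the muscle, and flow sorting kept those with Ly6C, which inflammatory monocytes carry, and little of the MF protein that Adgre1 encodes. The KO mice are labelled C57B6/J, PPARg fl/fl, LysM Cre+, so they carry floxed Pparg and a Cre recombinase driven from the lysozyme gene Lyz2, which is active in monocytes, MFs and neutrophils. The wild type (WT) is labelled C57B6/J, and its Ly6C+ F4/80low groups had 4 arrays at day 1 and 6 at day 2, also non-treated. By these labels WT differs from KO in the Cre insertion as well as in the floxed gene, and these cannot be told apart. The series' design text speaks of 3 animals per collection and the titles call the arrays biological replicates, but the labels do not say whether animals were pooled for an array, nor the age of the mice. The paper gives an age for its own injuries that is not tied to these arrays. Precision is limited by the number of arrays.

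Monocytes that enter injured muscle become Ly6C+ MFs, which first secrete inflammatory cytokines and clear debris. They later turn into Ly6C- MFs that help muscle fibres to regrow. PPARγ, the protein made from Pparg, is a nuclear receptor for fatty acids that pairs with RXR on DNA and is known in MFs for genes of lipid uptake and storage. The comparison shows how the Ly6C+ population of these KO mice changed over the second day after injury.

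Values are on the log2 scale, where 1 unit is a doubling, and differences are day 2 minus day 1 with their standard error (SE). "Rose" and "fell" are used of genes with a Benjamini-Hochberg adjusted p below 0.05 in limma's moderated test over 19938 genes, and every adjusted p below comes from that test. Of these genes, 1723 passed in KO (8.64%), 1209 that rose (6.06%) and 514 that fell (2.58%). The changes were mostly small, with a median of 0.42 among rising genes and of -0.42 among falling genes, and the median of all genes was -0.02. A fold of at least 2 was reached by 20 rising and 23 falling genes. In 2384 genes (12.0%) the day 1 and day 2 arrays did not overlap, 1448 of them higher (7.26%) and 936 lower (4.69%) at day 2.

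Of the 10 MF-defining genes read as a check, 9 were measured and each had a day 1 mean of at least 9.72 (Lyz2), with Cd68 at 12.64, Itgam at 12.00, Spi1 at 11.76 and Csf1r at 11.47. Only Adgre1, the gene of the sorted MF surface protein, changed between the days. It was 11.19, 11.30, 11.34 and 11.17 at day 1 and 11.58, 11.64, 11.55, 11.51 and 11.38 at day 2, a rise of 0.28 (SE 0.07, adjusted p = 0.00579). Both probe sets that Ly6c1 and Ly6c2 share were level, at 12.02 ± 0.18 (SD, n = 4) and 12.01 ± 0.10 (SD, n = 5) for one, and at 12.22 ± 0.16 and 12.23 ± 0.11 for the other. Lyz2, which carries the Cre insertion, stayed between 9.18 and 9.81 on all 9 KO arrays (difference -0.23, SE 0.71, adjusted p = 0.869), against a mean of 12.95 ± 0.12 (SD, n = 4) in WT at day 1. This SE pools the spread of all groups, among them WT day 2 with an SD of 2.17 (n = 6). The KO SDs were 0.06 (n = 4) and 0.21 (n = 5), so the test cannot decide on a small change of Lyz2 in KO. The WT day 2 arrays labelled replicates 1 to 3 had a Lyz2 mean of 8.87, as low as KO, and replicates 4 to 6 had 12.81. Lyz1, the neighbouring lysozyme gene, split the same way, with 11.97 and 10.08 against 12.38 in KO at day 2 and 9.68 in WT at day 1. Gdf3, a TGF-β family gene, did not, with 8.33 and 8.14 against 7.32 in KO at day 2. At Lyz2 and Lyz1 the arrays labelled WT day 2 replicates 1 to 3 thus read like KO, against their label. For several WT results below the values of each set are given.

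Transcripts of Pparg itself (probe set 10540897) rose. The 4 day 1 arrays read 9.08, 9.16, 9.52 and 9.49 and the 5 day 2 arrays 10.49, 10.54, 10.25, 10.40 and 10.26. All day 2 arrays lay above all day 1 arrays, and the difference was 1.08 (SE 0.14, adjusted p = 1.04e-06). WT rose by 1.10, and KO minus WT was -0.03 (SE 0.19, adjusted p = 0.977 in limma's interaction test). Neither the exons under this probe set nor those flanked by loxP are given, so the rise does not measure how much PPARγ was made. In bulk RNA, here and below, fewer cells of a type cannot be told apart from less RNA per cell.

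Among the 9 KO arrays, 2 were the most extreme of their group on a measure taken over many genes. On that measure neither lay far enough from its group to be flagged by the check of single arrays described below. KO day 1 replicate 1 had a mean of 5.34 over 1027 olfactory receptor genes, which MFs are not known to use, against 4.55 to 5.20 on the other 43 arrays. KO day 1 replicates 2 and 4, at 5.01 and 4.95, also lay above all KO day 2 arrays (4.68 to 4.80). Of these 1027 genes 170 fell, which is 33.1% of the 514 falling genes, and 0 rose. They were among 19938 genes tested, of which 2.58% fell. Without this array 846 genes rose and 196 fell. KO day 2 replicate 5 lay nearer to day 1 than the other day 2 arrays did. On a line from the WT day 1 mean at 0 to the WT day 2 mean at 1, drawn over the 1931 genes that passed in WT, the KO day 1 arrays lay at 0.14, 0.18, 0.13 and 0.12 and the KO day 2 arrays at 0.95, 0.88, 0.74, 0.71 and 0.47. With WT day 2 replicates 1 to 3 as the end of the line the KO day 2 arrays ran from 0.43 to 0.82, and with replicates 4 to 6 from 0.44 to 0.96. The WT arrays that set 0 and 1 also chose the genes, which stretches the line between them. Distances of KO arrays from 0 and 1 therefore do not measure a difference from WT. Without KO day 2 replicate 5, 1643 genes rose and 670 fell. Without both arrays 1292 rose and 338 fell. The part of these arrays in single results was not tested beyond the values without them.

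**Figure D1:**
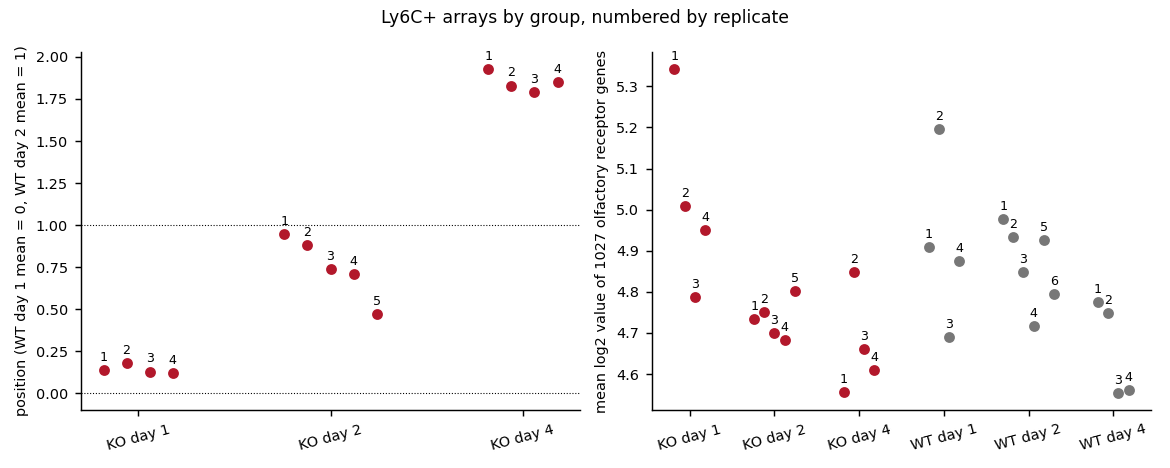
Left, position of each KO Ly6C+ array on the line from the WT day 1 mean (0) to the mean of all 6 WT day 2 arrays (1). Right, mean log2 value of 1027 olfactory receptor genes on each Ly6C+ array without rosiglitazone, KO in red and WT in grey. Numbers are replicates. KO day 2 arrays sit from 0.47 (replicate 5) to 0.95, and KO day 1 replicate 1 has the highest olfactory mean at 5.34.

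The 3 largest named falls were genes of the acute phase list. Lrg1, which encodes a leucine-rich glycoprotein of the acute phase, was 10.51, 10.98, 10.74 and 10.70 at day 1 and 8.20, 8.63, 8.14, 9.29 and 9.22 at day 2. Its fall of 4.11-fold (log2 -2.04, SE 0.21, adjusted p = 6.82e-09) was the largest among named genes. Lcn2, whose protein lipocalin keeps iron from bacteria, went from 10.95, 10.76, 11.13 and 11.31 to 8.84, 9.14, 8.86, 9.25 and 9.82, a fall of 3.62-fold (log2 -1.86, SE 0.24, adjusted p = 1.05e-06). Saa3, the serum amyloid A gene of mouse MFs, went from 10.23, 9.28, 9.59 and 10.11 to 7.82, 8.02, 7.73, 7.96 and 8.48 (log2 -1.80, SE 0.19, adjusted p = 1.58e-08). In all of these genes every day 2 array lay below every day 1 array. Of 15 measured members of the acute phase and calprotectin list, 7 fell and 0 rose, with a median of -0.26. The others were S100a8 and S100a9, which encode the subunits of calprotectin, the haemoglobin binder Hp, and the protease inhibitor Slpi, at -1.13 (SE 0.13), -0.57 (SE 0.12), -0.69 (SE 0.16) and -0.65 (SE 0.17). KO day 2 replicate 5 was inside the day 1 range for S100a9 (7.10) and Slpi (10.42). Saa1 and Saa2 were near the bottom of the scale, with day 1 means of 3.61 and 4.09, and did not pass.

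**Figure D2:**
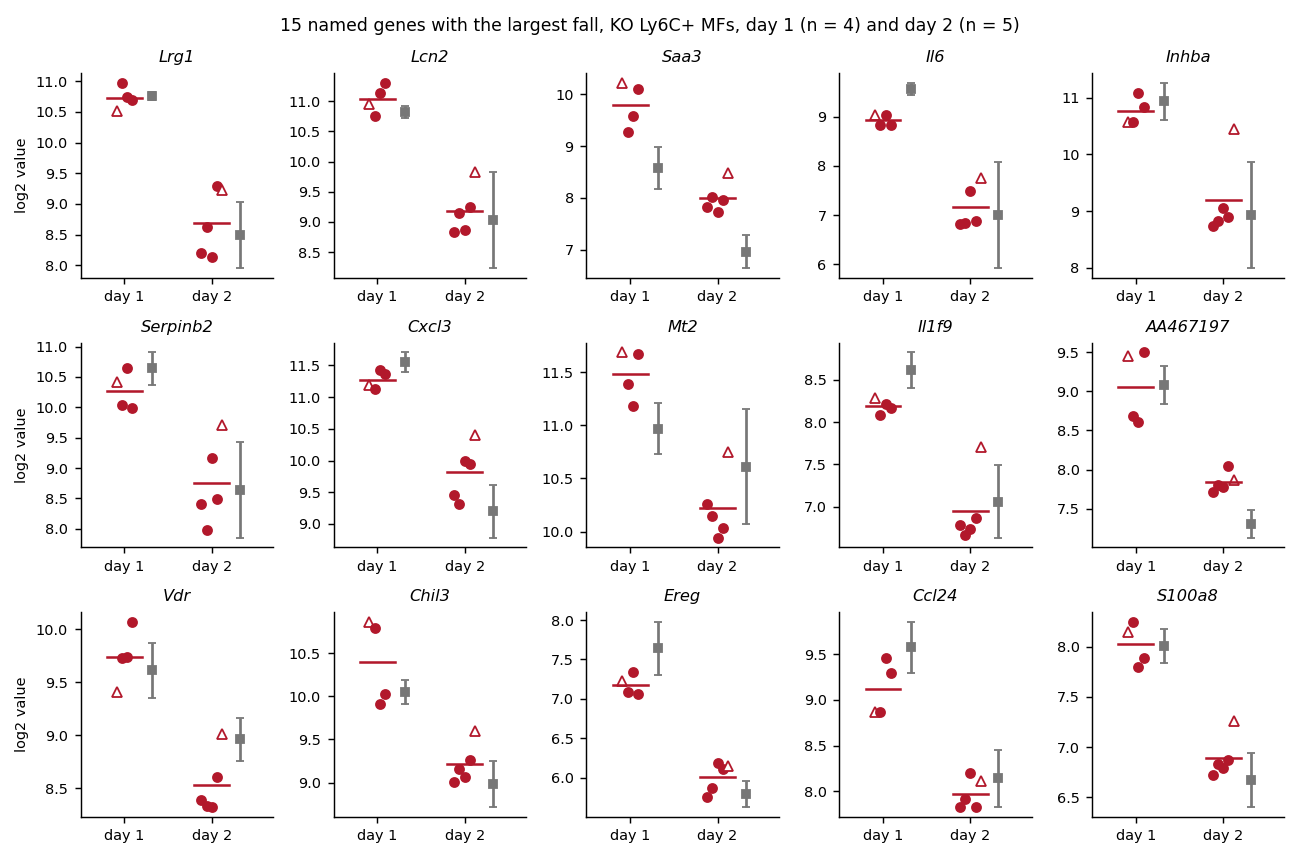
Log2 values of the 15 named genes with the largest falls in KO Ly6C+ MFs. Red points are KO arrays at day 1 (n = 4) and day 2 (n = 5) with their mean as a line, and open triangles are KO day 1 replicate 1 and KO day 2 replicate 5. Grey squares are WT means with SD (n = 4 and 6). In all 15 genes the KO day 2 points lie below the day 1 points.

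Cytokines, growth factors and regulators filled the rest. Il6, the cytokine that drives acute phase genes through STAT3, was 9.04, 8.82, 9.03 and 8.82 at day 1 and 6.82, 6.84, 7.49, 6.89 and 7.76 at day 2, a fall of 3.41-fold (log2 -1.77, SE 0.31, adjusted p = 0.000252). The neutrophil-attracting chemokine Cxcl3 was 11.19, 11.12, 11.42 and 11.37 and then 9.46, 9.32, 9.94 and 10.41 in replicates 1, 2, 4 and 5, with replicate 3 just above replicate 4, a fall of 2.73-fold (log2 -1.45, SE 0.28, adjusted p = 0.000849). Day 2 replicate 5 had the highest day 2 value of both genes. Inhba, which encodes the activin A subunit, showed this most. It went from 10.58, 10.58, 11.09 and 10.83 to 8.74, 8.82, 9.05 and 8.89 on 4 day 2 arrays, with replicate 5 at 10.45. Its fall was 1.58 on average (SE 0.41, adjusted p = 0.0129), and without replicate 5 the difference was -1.89. Serpinb2, the plasminogen activator inhibitor of MFs, was 9.99 to 10.65 at day 1 and 7.98 to 9.71 at day 2 (log2 -1.52, SE 0.36, adjusted p = 0.00607).

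The other named falls ran from -1.26 to -1.15. They were the metal-binding metallothionein Mt2 (-1.26, SE 0.21), the IL-1 family cytokine Il1f9 (-1.23, SE 0.18), AA467197, a gene of a small mitochondrial protein (-1.22, SE 0.15), the vitamin D receptor Vdr (-1.21, SE 0.14), the chitinase-like Chil3 (-1.18, SE 0.22), the EGF receptor ligand Ereg (-1.16, SE 0.15) and the eosinophil-attracting chemokine Ccl24 (-1.15, SE 0.16). Their adjusted p ran from 2.57e-07 to 0.000533. In each of them all 5 day 2 arrays lay below all 4 day 1 arrays.

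Few chemokines besides Cxcl3 and Ccl24 passed, although most had negative differences. Of 13 measured CXC chemokines 1 fell, with a list median of -0.20, and Cxcl1 and Cxcl2 had -0.63 (adjusted p = 0.142) and -0.20 (adjusted p = 0.545). Of 12 CC chemokines 2 fell, Ccl24 and Ccl17 (-0.26, SE 0.09, adjusted p = 0.0498), and Ccl17 lost its call in 12 of 19 alternatives. Ccl2, which attracts monocytes, had a day 1 mean of 12.80 and a difference of -0.10 (adjusted p = 0.638), and Ccl3 had 13.06 and -0.05 (adjusted p = 0.671). Differences were negative in 10 of the 13 CXC and 10 of the 12 CC genes, and every day 2 array lay below every day 1 array in 6 and 4 of them. Over all genes, beside these counts and those that follow, 2.58% fell and 4.69% were lower without overlap. In the IL-1 list 3 of 16 fell, Il1f9 with the decoy receptor Il1r2 (-0.43, SE 0.14, adjusted p = 0.0478) and the receptor subunit Il1rap (-0.34, SE 0.10). Without KO day 1 replicate 1, or with array medians subtracted, 1 of the 16 fell, and Il1r2 lost its call in 11 of 20 alternatives. Il1b itself had a day 1 mean of 12.73 and a difference of -0.15 (adjusted p = 0.87), and Il1a one of -1.13 that missed the threshold (adjusted p = 0.069). In the IL-6 list 2 of 13 fell, Il6 and the related cytokine Clcf1 (-0.67, SE 0.16), and of 11 other inflammatory cytokines only Il23a fell (-0.60, SE 0.13), with 3 falls without KO day 2 replicate 5. Chemokine receptors had 1 rise, Cx3cr1, and 1 fall, the scavenging receptor Ackr3 (-0.33, SE 0.09), among 11.

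The start regions of 3 falling genes are shown with the letters of motifs named for inflammatory transcription factors. Each window holds 300 bases around the RefSeq start on GRCm38.p6. For Il6 (chr5:30012864-30013163, plus strand) capitals mark an NF-kB motif (GGG, 2 free letters, T, 2 free letters, CC) from base 207 to 216 and TGANTCA, an AP-1 motif, from base 2 to 8. For Cxcl3 (chr5:90785851-90786150, plus strand) they mark the NF-kB motif from base 178 to 187. For Saa3 (chr7:46715627-46715926, minus strand) they mark 4 matches to TTNNGNAA, a C/EBP motif. Left in lower case are 1 C/EBP match in the Il6 window and 1 match of the interferon-stimulated response element in the Saa3 window. The windows were picked because they hold matches, and that of Il1f9, for one, held 0 of the 6 motifs searched.
Il6: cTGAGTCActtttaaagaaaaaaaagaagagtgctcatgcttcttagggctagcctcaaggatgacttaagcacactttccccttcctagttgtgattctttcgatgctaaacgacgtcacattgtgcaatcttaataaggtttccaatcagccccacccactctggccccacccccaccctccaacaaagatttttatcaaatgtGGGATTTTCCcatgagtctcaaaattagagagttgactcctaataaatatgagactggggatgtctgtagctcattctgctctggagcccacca
Cxcl3: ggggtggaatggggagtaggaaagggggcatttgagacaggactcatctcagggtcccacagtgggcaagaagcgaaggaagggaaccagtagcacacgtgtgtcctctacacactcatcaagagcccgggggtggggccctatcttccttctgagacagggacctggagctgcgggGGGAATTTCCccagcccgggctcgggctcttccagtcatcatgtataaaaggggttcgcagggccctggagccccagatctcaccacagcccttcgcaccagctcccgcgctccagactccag
Saa3: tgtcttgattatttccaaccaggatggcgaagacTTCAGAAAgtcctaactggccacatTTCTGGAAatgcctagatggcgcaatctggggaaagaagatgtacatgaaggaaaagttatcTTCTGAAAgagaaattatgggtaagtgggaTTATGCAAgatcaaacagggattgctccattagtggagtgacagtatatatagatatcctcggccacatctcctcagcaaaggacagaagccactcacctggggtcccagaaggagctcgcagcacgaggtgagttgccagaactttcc
Motifs were read on both strands in 19116 windows of 15563 tested genes, 20.9% of which hold the NF-kB motif, 6.88% the AP-1 motif and 36.0% the C/EBP motif. Of the 15 largest named falls, 13 had 14 windows, of which 2 held the NF-kB, 5 the AP-1 and 9 the C/EBP motif. The AP-1 and C/EBP counts each include 2 overlapping windows of Serpinb2. Of the 15 largest named rises, 11 had 13 windows, of which 1, of Pparg, held the NF-kB motif, 0 the AP-1 and 4 the C/EBP motif. Over the 321 windows of all falling genes other than olfactory receptor genes the shares were 20.9%, 12.1% and 42.4%, and over the 1237 windows of rising genes 20.0%, 5.17% and 35.2%. The median share of G and C in these windows was 54.7% for falling and 60.0% for rising genes, against 57.7% for all. A match describes letters and shows no binding.

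Markers of other cells were read beside the falls. Of 16 measured neutrophil markers 6 fell and 0 rose, with a list median of -0.36, and the mean level over the list ran from 7.43 to 7.61 on day 1 arrays and from 7.03 to 7.28 on day 2 arrays. Differences were negative in 15 of the 16. In 5 of them every day 2 array lay below every day 1 array, against 4.69% of all genes. The 6 that fell were Lcn2, S100a8, S100a9, Il1r2, the collagenase Mmp8 (-0.44, SE 0.12) and the protease Prtn3 (-0.40). Markers that define neutrophils more narrowly were low at day 1 and did not pass, with Ly6g at 5.88 (-0.34, adjusted p = 0.12), Ltf at 5.81, Ngp at 5.42 and Camp at 6.49. Csf3r, the receptor for the neutrophil growth factor G-CSF, was at 10.08 and level (-0.01). The paper gated its own sequenced muscle MFs on Ly6G as well, a gate that removes neutrophils, but the labels of these arrays name no neutrophil marker, and the part of neutrophils in these falls was not tested.

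In the monocyte list 5 of 16 fell and 0 rose, with a median of -0.24. These were Chil3, Hp, the glutathione reductase gene Gsr (-0.50, SE 0.09), Mmp8 and the matrix proteoglycan gene Vcan (-0.38, SE 0.11), while Ccr2, the receptor that brings monocytes into tissue, had 0.23 (adjusted p = 0.274). Vcan lost its call in 8 of 20 alternatives. Among pattern and Fc receptors 1 of 23 fell, Trem1 (-0.79, SE 0.23, adjusted p = 0.0219), which amplifies Toll-like receptor signals, and 0 fell without KO day 1 replicate 1 or without KO day 2 replicate 1. Markers of skeletal muscle fibre (16 measured), myoblast (11), fibroblast (11), T and NK cell (12), eosinophil and mast cell (11) and erythroid cells (4) had 0 passing members. Endothelial markers had 1 rise, Kdr (0.47, SE 0.15), and 1 fall, Emcn (-0.63, SE 0.20), of 10, which lost their calls in 10 of 20 and 9 of 19 alternatives. B cell markers had 2 rises of 7, Blnk (0.87, SE 0.13) and Cd79b (0.53, SE 0.14), while their other 5 measured markers did not pass. Of 11 dendritic cell markers, Kmo rose (0.55, SE 0.16), a call lost in 7 of 19 alternatives.

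The largest named rises held receptors and secreted proteins of several kinds, 2 of the 15 from the maturation list. Fcrls, an Fc receptor-like gene that marks resident MFs such as microglia, was 6.94, 7.46, 7.52 and 6.56 at day 1 and 9.44, 9.18, 9.25, 9.22 and 8.20 at day 2. All day 2 arrays exceeded all day 1 arrays, and the rise was 3.84-fold (log2 1.94, SE 0.18, adjusted p = 1.49e-09). Cx3cr1, the fractalkine receptor, was 8.28, 8.63, 8.11 and 8.0 and then 9.82, 9.60, 9.65, 9.35 and 8.61, so that replicate 5 alone reached down to the day 1 range (log2 1.15, SE 0.19, adjusted p = 0.00012). Gas6, a bridge protein that links dying cells to the receptors Axl and Mertk, was 6.61 to 7.09 at day 1 and 7.72 to 8.57 at day 2 (log2 1.32, SE 0.14, adjusted p = 9.96e-09). Cd72, a receptor of B cells and MFs, went from 6.81, 6.45, 7.03 and 8.29 to 9.16, 8.97, 8.35, 8.91 and 8.31 (log2 1.59, SE 0.22, adjusted p = 4.84e-06), with the lowest day 2 and the highest day 1 array almost level.

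**Figure D3:**
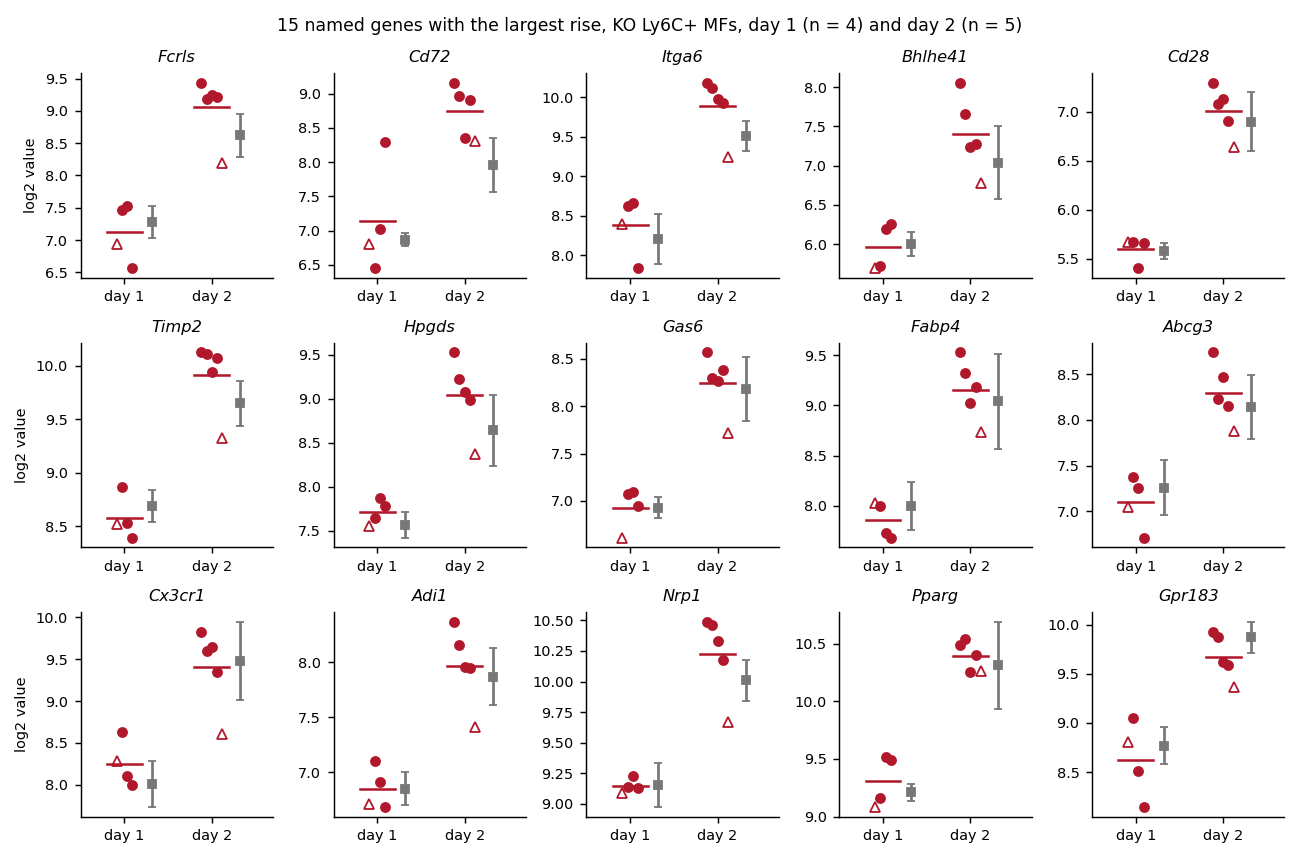
Log2 values of the 15 named genes with the largest rises in KO Ly6C+ MFs, with symbols as for the falls: red KO arrays (n = 4 and 5) with their mean, open triangles for KO day 1 replicate 1 and KO day 2 replicate 5, grey WT means with SD (n = 4 and 6). KO day 2 replicate 5 is the lowest day 2 array in 14 of the 15 genes.

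Adhesion, matrix and lipid mediator genes were also among them. The laminin receptor subunit Itga6 was 7.83 to 8.66 at day 1 and 9.25 to 10.19 at day 2 (log2 1.52, SE 0.14, adjusted p = 1.49e-09). The matrix metalloproteinase inhibitor Timp2 was 8.39 to 8.87 and then 9.33 to 10.13 (log2 1.34, SE 0.11, adjusted p = 2.06e-10). Hpgds, which makes prostaglandin D, was 7.55 to 7.87 and then 8.37 to 9.53 (log2 1.33, SE 0.16, adjusted p = 1.9e-07). Bhlhe41, a repressor of transcription, rose by 1.44 (SE 0.20), Cd28, best known as a costimulatory receptor of T cells, by 1.41 (SE 0.14), and Abcg3, a transporter gene, by 1.19 (SE 0.17). The remaining named rises were Adi1, an enzyme of methionine salvage (1.12, SE 0.13), the semaphorin and VEGF receptor Nrp1 (1.08, SE 0.11) and Gpr183, a receptor for oxysterols that guides cells (1.04, SE 0.14). All 5 day 2 arrays lay above all 4 day 1 arrays in 14 of the 15 genes, Cx3cr1 being the exception.

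Of 19 measured members of the maturation list 10 rose and 0 fell, with a median of 0.28. Over all genes, beside this and every other list count of KO rises, 6.06% rose. After Fcrls and Cx3cr1 the largest were the complement gene C1qa, the tetraspanin Cd63 (0.61, SE 0.17) and the lipid-sensing receptor Trem2 (0.57, SE 0.14), followed by Tmem119, Mrc1, Apoe, Hexa and Adgre1. Apoe lost its call in 7 and Hexa in 9 of 20 alternatives. C1q, which tags dying cells, rose in all 3 chains, with C1qa at 0.94 (SE 0.21, adjusted p = 0.00414), C1qc at 0.70 (SE 0.18) and C1qb at 0.48 (SE 0.10). C1qa read 9.19, 9.25, 9.11 and 8.67 at day 1 and 10.34, 10.12, 10.17, 9.87 and 9.48 at day 2, with no overlap. With the receptor C3ar1 (0.23, SE 0.06), 4 of 16 complement genes rose and 0 fell. In the efferocytosis list 6 of 22 rose and 0 fell, among them Gas6, its receptor Axl (0.52, SE 0.14), the integrin Itgb5 (0.51, SE 0.13) and the engulfment factor Dock1 (0.42, SE 0.08), while Mertk had 0.06 and did not pass. For Axl the days overlapped, as day 1 replicate 4, at 9.13, lay above all day 2 arrays but one.

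Of 11 measured members of the MHC class II and costimulation list, which serve antigen presentation, 5 rose and 0 fell, with a median of 0.37 and 3 negative differences. Over all genes 6.06% rose. The chain genes H2-Eb1, H2-Ab1 and H2-Aa had 1.00 (SE 0.22, adjusted p = 0.00251), 0.90 (SE 0.14, adjusted p = 6.05e-05) and 0.78 (SE 0.13, adjusted p = 0.000147). H2-Ab1 was 10.81, 11.12, 10.78 and 11.06 at day 1 and 11.81, 11.81, 11.80, 12.03 and 11.77 at day 2, so that the day 2 arrays, replicate 5 included, were tight and apart from day 1. The invariant chain Cd74 had 0.45 (SE 0.09) and Ciita, the master activator of these genes, 0.54 (SE 0.12, adjusted p = 0.00311). Ciita went from 6.99, 7.03, 6.93 and 6.82 to 7.61, 7.26, 7.64, 7.61 and 7.31. The 5 rises were also counted without KO day 1 replicate 1 and without KO day 2 replicate 5, where 1 other member fell.

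Genes of lipid handling did not move as one. Of 20 measured PPAR targets of lipid uptake and storage 3 rose and 2 fell, with a median of -0.04. The fatty acid binding protein Fabp4, a classic PPARγ target, was 8.03, 8.0, 7.73 and 7.68 at day 1 and 9.53, 9.32, 9.02, 9.18 and 8.73 at day 2 (log2 1.30, SE 0.18, adjusted p = 2.94e-06). Lipoprotein lipase, Lpl, was 7.64 to 8.27 and then 8.65 to 9.29 (log2 0.93, SE 0.16), and Fabp5 was 10.93 to 11.40 and then 11.67 to 12.15 (log2 0.79, SE 0.17, adjusted p = 0.00314). The triglyceride-making enzymes Gpat3 and Dgat2 fell, by 0.65 (SE 0.16) and 0.63 (SE 0.12). The fatty acid receptor Cd36 (-0.04, adjusted p = 0.894), the lipase inhibitor Angptl4 (-0.02, adjusted p = 0.964) and the lipid droplet protein Plin2 (0.12, adjusted p = 0.436) did not pass. In the list of PPAR and RXR receptors and their cofactors, Pparg was the only 1 of 11 that passed.

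Other lipid lists held rises only, where 6.06% of all genes rose and the median difference of all genes was -0.02. Cholesterol export had 3 of 13, the phospholipid transfer protein Pltp (1.03, SE 0.17, adjusted p = 0.000147), Apoe (0.48, SE 0.14) and the transporter Abca9 (0.46, SE 0.13), with 1 rise without KO day 1 replicate 1, and Apoe lost its call in 7 of 20 alternatives. Pltp was 9.35, 9.58, 8.99 and 8.90 at day 1 and 10.44, 10.26, 10.14, 10.39 and 9.94 at day 2. Cholesterol synthesis had 3 of 19, Hmgcs1, Dhcr7 and Stard4, at 0.43, 0.39 and 0.29, and Stard4 lost its call in 7 of 20 alternatives. Fatty acid oxidation had 4 of 18, Acadm, Hadh, Decr1 and Etfa, from 0.34 to 0.49, and all 18 measured members had a positive difference with a median of 0.27. Without KO day 2 replicate 5, 8 of the 18 rose, and Decr1 and Etfa lost their calls in 10 and 9 of 20 alternatives. Respiration and the TCA cycle had 4 of 21, Idh3a, Fh1, Ndufa4 and Ndufs1, from 0.35 to 0.55, and 20 of 21 were positive. After quantile normalization 1 of the 21 rose, and Ndufa4, Idh3a and Fh1 lost their calls in 10, 9 and 9 of 20 alternatives. Fatty acid synthesis had 1 of 15, near the share of all genes. It was the desaturase Fads1 (0.63, SE 0.19, adjusted p = 0.035), a call lost in 9 of 20 alternatives.

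**Figure D4:**
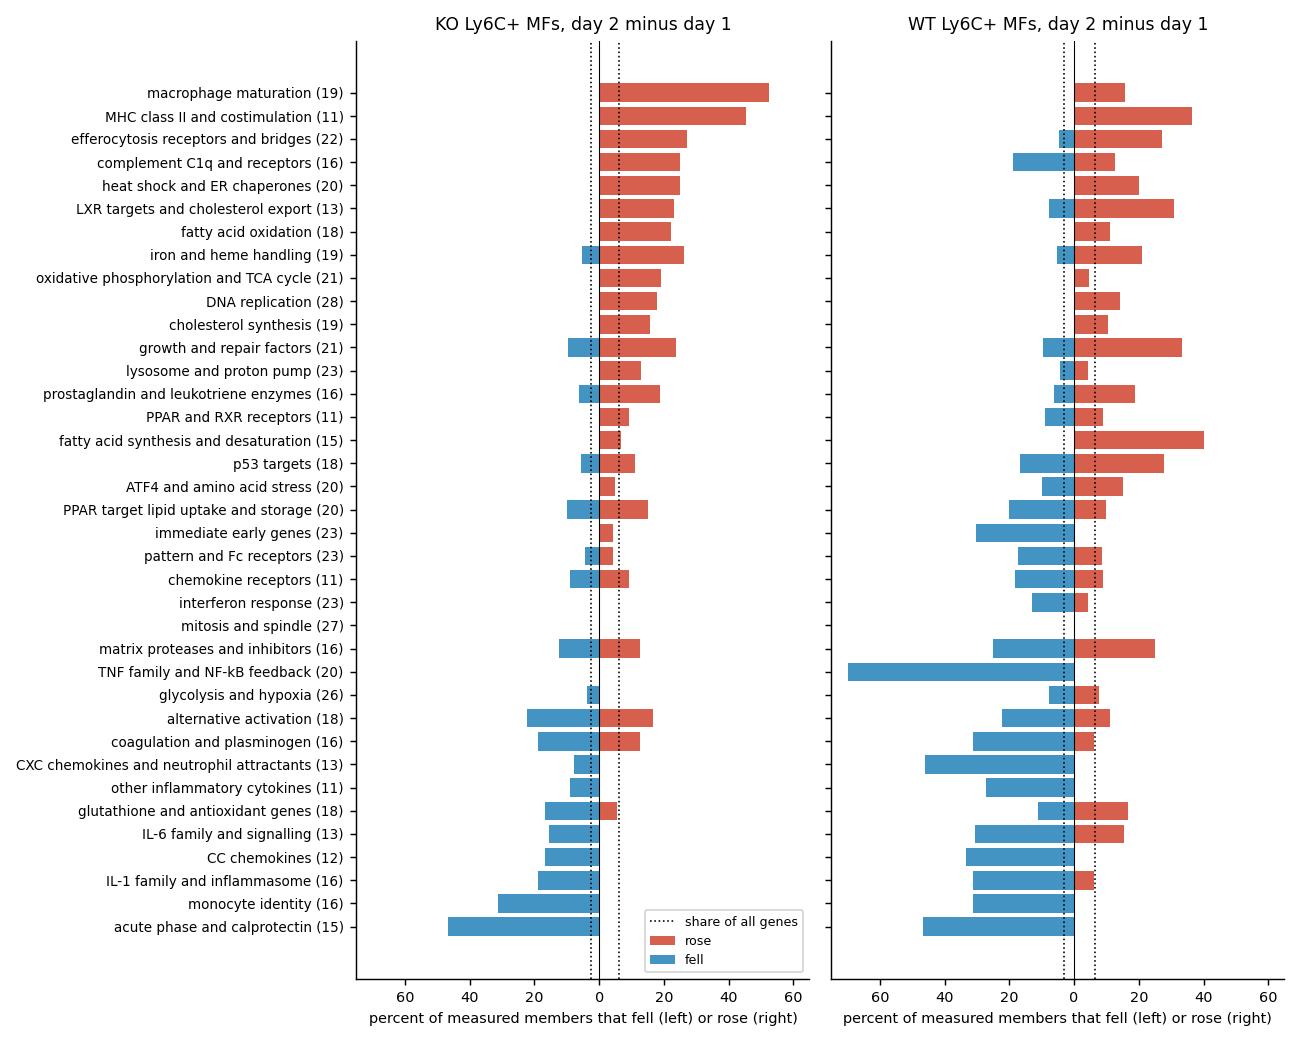
Percent of the measured members of each of 37 functional gene lists (number measured in brackets) that rose (right, red) or fell (left, blue) between day 1 and day 2 in KO and in WT Ly6C+ MFs. Dotted lines are the shares of all genes that rose and fell, 6.06% and 2.58% in KO and 6.51% and 3.17% in WT. Macrophage maturation leads the KO rises (10 of 19) and acute phase the falls (7 of 15), and the TNF list, at 0 in KO, has 14 of 20 falls in WT.

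Secreted repair factors went both ways. Of 21 measured, 5 rose and 2 fell, the falls being Inhba and Ereg, where 6.06% of all genes rose and 2.58% fell. Igf1, which drives muscle growth, was 7.40, 7.26, 7.63 and 7.52 at day 1 and 8.82, 8.56, 8.13, 8.04 and 7.48 at day 2, with replicate 5 inside the day 1 range (log2 0.75, SE 0.18, adjusted p = 0.00765). Gpnmb, a membrane glycoprotein of lipid-laden MFs, was 11.94 to 12.17 and then 12.58 to 12.67 (log2 0.58, SE 0.08, adjusted p = 2.45e-06), and Ndnf, a secreted factor named for neurons, rose by 0.54 (SE 0.11). Gdf3 was 6.76, 7.17, 6.98 and 7.07 and then 7.41, 7.38, 7.24, 7.32 and 7.24, which do not overlap, but it did not pass (log2 0.32, SE 0.13, adjusted p = 0.101). Among alternative activation genes 3 of 18 rose and 4 fell. The folate receptor Folr2 (0.82, SE 0.14) and the lectin Clec10a (0.72, SE 0.15) rose with Mrc1, while Arg1, the arginase of repair MFs, fell from 10.29, 10.38, 10.75 and 10.53 to 9.71, 9.50, 10.28, 9.75 and 9.72 (log2 -0.69, SE 0.20, adjusted p = 0.0227).

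Proteases and clotting genes were mixed as well. Tissue factor, F3, the trigger of clotting, fell from 8.11, 8.01, 8.32 and 8.05 to 6.77, 6.88, 7.43, 6.86 and 7.23 (log2 -1.09, SE 0.27, adjusted p = 0.00948), and F5 fell by 0.45 (SE 0.13). The tissue factor inhibitor Tfpi (0.47, SE 0.13) and the plasminogen activator Plau (0.50, SE 0.15) rose, so that 2 of 16 coagulation genes rose and 3 fell, with 1 rise without KO day 1 replicate 1. Plau lost its call in 9 of 20 alternatives. In the matrix list 2 of 16 rose, Timp2 and the elastase Mmp12 (0.58, SE 0.16), and 2 fell, Mmp8 and the membrane-bound Mmp14 (-0.57, SE 0.09, adjusted p = 5.12e-05). Among 16 enzymes of prostaglandins and leukotrienes, Hpgds, the prostaglandin-degrading Hpgd (0.53, SE 0.16) and Alox5 (0.41, SE 0.11) rose. Hpgd lost its call in 7 of 20 alternatives. Ptges, which makes prostaglandin E, fell by 0.93 (SE 0.23, adjusted p = 0.00872), and day 2 replicate 5, at 8.95, was inside its day 1 range of 8.60 to 9.30.

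Iron, redox and lysosome genes followed. Of 19 iron genes 5 rose and 1, Hp, fell, with the iron exporter Slc40a1 at 0.52 (SE 0.15), the biliverdin reductase Blvra at 0.50 (SE 0.09), the ferrireductase Steap3 at 0.46 (SE 0.11) and Aco1 at 0.39 (SE 0.10). Without KO day 1 replicate 1, 3 iron genes rose. Of 18 antioxidant genes 3 fell, Mt2, Gsr and the mitochondrial Sod2 (-0.45, SE 0.14), and 1 rose, Prdx1 (0.28, SE 0.07). Sod2 lost its call in 10 of 20 alternatives. In the lysosome list 3 of 23 rose, the acid lipase Lipa (0.56, SE 0.09), Atp6v1b2 and Hexa, and 22 of 23 differences were positive. After array medians were subtracted 6 rose, and without KO day 2 replicate 5, 7. Hexa lost its call in 9 of 20 alternatives. Glycolysis and hypoxia had 1 fall of 26, the hypoxia factor Hif1a (-0.29, SE 0.09), which was at 12.09 on average at day 1 and lost its call in 8 of 20 alternatives.

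Of 20 measured chaperone genes 5 rose and 0 fell, with a median of 0.30, and 3 rose after quantile normalization. The 5 were Hsph1 (0.94, SE 0.30, adjusted p = 0.0414), the mitochondrial chaperonin pair Hspe1 (0.60, SE 0.17) and Hspd1 (0.52, SE 0.12), and the protein disulfide isomerases Pdia6 (0.37) and Pdia4 (0.36). Hsph1 lost its call in 11 and Hspe1 in 7 of 20 alternatives. Hspe1 was 9.68, 9.29, 9.19 and 9.23 at day 1 and 10.11, 10.09, 9.89, 9.87 and 9.79 at day 2. Both genes of the pair have processed pseudogenes, and whether these probe sets read the pair itself or such copies was not tested. The genes of the pair lie head to head and share a start region, which is shown because both probe sets rose. The RefSeq window of Hspe1 (GRCm38.p6, chr1:55087898-55088197, plus strand) overlaps one of Hspd1 on the minus strand (chr1:55087883-55088182). Capitals mark a heat shock element (GAA, TTC and GAA with 2 free letters between each), read on both strands, with overlapping matches from base 162 to 174 and from 167 to 179, and 0.492% of all windows hold it.
Hspe1: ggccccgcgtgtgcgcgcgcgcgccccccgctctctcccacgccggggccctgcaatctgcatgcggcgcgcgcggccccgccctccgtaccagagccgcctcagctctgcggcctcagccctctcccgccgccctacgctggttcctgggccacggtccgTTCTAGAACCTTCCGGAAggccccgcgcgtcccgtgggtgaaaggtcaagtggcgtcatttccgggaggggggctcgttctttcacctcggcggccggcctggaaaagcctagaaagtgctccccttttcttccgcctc
Genes of the amino acid stress response did not move with them, with 1 rise of 20, the serine synthesis enzyme Psat1 (0.45, SE 0.09). That count is near the 6.06% of all genes that rose.

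Of 28 measured replication genes 5 rose, the helicase subunits Mcm6 (0.72, SE 0.13, adjusted p = 0.000355), Mcm3 (0.42) and Mcm2 (0.41), the nucleotide reductase Rrm1 (0.52, SE 0.14) and E2f1 (0.27, adjusted p = 0.0494), which lost its call in 14 of 20 alternatives. Over all genes 6.06% rose. Mcm6 was 6.40, 6.46, 6.30 and 6.10 at day 1 and 7.22, 7.40, 6.94, 7.05 and 6.54 at day 2. Of 27 mitosis genes 0 passed, and the largest were Ube2c (-0.30, adjusted p = 0.214) and Cenpf (-0.20, adjusted p = 0.207). Without day 1 replicate 1, 3 replication genes rose. Among 18 p53 targets Sesn1 (1.04, SE 0.18, adjusted p = 0.000183) and Trp53inp1 (0.83, SE 0.25) rose and Gadd45a fell (-0.46, SE 0.12).

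Interferon genes did not pass, with 0 of 23, a median of 0.20 and a wide spread at day 1. Ifit3, an antiviral gene, was 9.67, 8.84, 7.81 and 10.99 at day 1, where replicate 4 lay above every other KO array of both days, and 10.55, 10.43, 9.82, 10.27 and 9.75 at day 2 (log2 0.84, SE 0.40, adjusted p = 0.18). The mean over the list ran from 9.13 to 10.47 on the day 1 arrays and from 9.59 to 10.02 on the day 2 arrays.

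Over the same days in WT Ly6C+ MFs, 1931 genes passed (9.69%), 1298 that rose (6.51%) and 633 that fell (3.17%), and 2351 passed with day 2 replicates 1 to 3 and 2094 with replicates 4 to 6. Of them 677 also passed in KO the same way, 39.3% of the KO and 35.1% of the WT genes. Of the 1723 KO genes, 1573 (91.3%) had a WT difference of the same sign, a share that was not counted over all genes. The KO and WT contrasts use different arrays, and Pearson's r of their differences was 0.60 across all genes, which are not independent replicates. All 15 named KO rises rose in WT, and 14 of the 15 named falls fell, the exception being Mt2 (WT -0.36, adjusted p = 0.292). Mt2 had a WT difference of 0.11 with WT day 2 replicates 1 to 3 and of -0.84 with replicates 4 to 6.

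**Figure D5:**
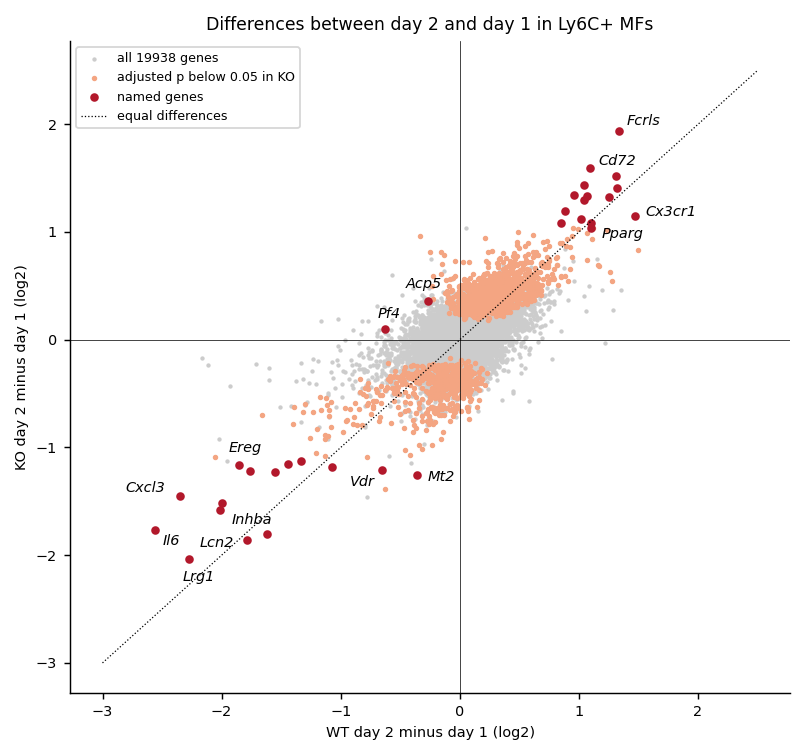
Difference between day 2 and day 1 in KO (vertical) against that in WT (horizontal), in log2, for 19938 genes. Orange points are genes with an adjusted p below 0.05 in KO, and dark red points are the 15 largest named rises and falls with the 2 interaction genes. Most dark red points lie near the dotted line of equal differences, while Pf4 and Acp5 lie above 0 in KO and below 0 in WT.

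Whether the change differed between the genotypes was tested as an interaction, which 2 genes passed (0.01%), while 1782 (8.94%) had an unadjusted p below 0.05. Pf4, a platelet-type chemokine, was 11.70, 11.63, 11.78 and 11.52 at day 1 and 11.78, 11.76, 11.95, 11.87 and 11.45 at day 2 in KO, a difference of 0.10 (SE 0.09, adjusted p = 0.516). In WT it fell by 0.63, and the KO minus WT difference was 0.73 (adjusted p = 0.0165). Acp5, the tartrate-resistant acid phosphatase, rose in KO from 9.88, 9.83, 9.85 and 9.64 to 10.19, 10.11, 10.35, 10.21 and 9.96 (log2 0.36, SE 0.08) and fell in WT (-0.27, adjusted p = 0.0215), an interaction of 0.63 (adjusted p = 0.0165). Neither set of WT day 2 replicates turned these signs. The number of interaction genes depended on the arrays and the fit. It was 0 when KO day 1 replicate 4, KO day 2 replicate 3 or any of WT day 1 replicates 1, 2 and 3 was left out, 7 without KO day 2 replicate 5, 13 without WT day 2 replicate 4 and 17 without WT day 2 replicate 6. It was 267 with WT day 2 replicates 1 to 3 as WT day 2 and 4 with replicates 4 to 6, 254 with array weights and 85 with a replicate block.

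Genes of inflammatory feedback passed in WT and not in KO, and no single gene passed the test of the difference. Of 20 measured genes of the TNF family and NF-kB feedback list, 0 passed in KO, with a median of -0.16 and a range from -0.49 (Traf1, adjusted p = 0.278) to 0.09, and 14 fell in WT, with a median of -0.58. Over all genes 2.58% fell in KO and 3.17% in WT. Tnf itself, chosen after its values were seen, had -0.18 in KO (adjusted p = 0.746) and -1.24 in WT (adjusted p = 0.00305). The WT median was -0.62 with day 2 replicates 1 to 3 and -0.56 with replicates 4 to 6. None of the 20 passed the interaction, and 8 had an unadjusted p below 0.05, as did 8.94% of all genes. Without KO day 2 replicate 5, 2 of the 20 fell in KO and the median was -0.21.

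Immediate early genes gave a like picture. Of 23 measured, 1 rose in KO, near the 6.06% of all genes that rose, with a list median of 0.06. It was Jun (0.36, SE 0.11, adjusted p = 0.0376), which lost its call in 9 of 20 alternatives. In WT, where 3.17% of all genes fell, 7 of the 23 fell, with a median of -0.38. The interaction had a median of 0.43 over the list and 0 passing genes. CXC chemokines had 1 fall in KO and 6 of 13 in WT, where Cxcl3 fell by 2.35, and 1 of the 13, Pf4, passed the interaction. Fatty acid synthesis had 1 rise of 15 in KO and 6 in WT, where Fads1 rose by 1.26 (0.86 with day 2 replicates 1 to 3 and 1.66 with replicates 4 to 6). Over all genes 6.51% rose in WT. None of the 15 passed the interaction, and Fads1 had a KO minus WT difference of -0.64 (adjusted p = 0.48). Fabp5 had -0.13 in WT (adjusted p = 0.716), with 0.16 for day 2 replicates 1 to 3 and -0.44 for replicates 4 to 6, beside its rise of 0.79 in KO (KO minus WT 0.92, adjusted p = 0.201 in limma's interaction test).

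The direction of the second day mostly went on. By day 4 the KO mean (n = 4) lay above that of day 2 in 12 of the 15 named rises and below it in 14 of the 15 named falls, as a description, since the day 2 arrays chose these genes. Fcrls stood at 11.34, Gas6 at 10.79 and Cx3cr1 at 11.29, and Lrg1 at 6.46, Il6 at 3.79 and Cxcl3 at 5.78. Pparg was at 10.18 and Fabp4 at 8.70, both below their day 2 means of 10.39 and 9.15, and Gpr183 was level at 9.67. Mt2, at 10.62, was above its day 2 mean of 10.23. On the line through the WT means the 4 KO day 4 arrays lay from 1.79 to 1.93. They lay from 1.54 to 1.67 with WT day 2 replicates 1 to 3 as its end, and from 1.78 to 1.92 with replicates 4 to 6.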

How the data were processed

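RNA of sorted MFs was measured on 44 one-colour Affymetrix mouse gene arrays. The deposited table holds 35556 probe sets as log2 values that the authors made with RMA, per the submitters' processing notes, which correct background, quantile normalize and summarise probes. No version or probe set definition is named there. Values were used as deposited. The platform annotation gave 1 symbol to 21789 probe sets, and a gene with several probe sets was read from the probe set of highest mean, leaving 19938 genes. Groups followed the labels.

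Group means of all 44 arrays were fitted gene by gene with limma 3.58.1 in R 4.3.3 (10 groups, 34 residual and 6.46 prior degrees of freedom). Contrasts were KO day 2 minus day 1, the same in WT, and their difference, each two-sided with Benjamini-Hochberg adjustment over all genes and a threshold of 0.05. The fit was tested on simulated data.

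The genes named were the 15 largest rises and falls that passed, without most predicted or clone-named genes, 11 genes read whatever their values, up to 5 passing members of each of 48 gene lists (the 2 largest where none passed), and genes that passed the interaction. Symbols left out were Gm, LOC, BC, AI or AU with a number, Mir, Snor and Rik, so AA467197 stayed in. The genes of the comparison, the lists and this rule were chosen with earlier results of these data known, so list counts are descriptions. Other genes are values of list members beside these. Promoter windows are those of RefSeq on GRCm38.p6. Alternatives left out single arrays, changed the arrays fitted, the normalization, the probe set rule, the filter, the weights and the fold, or added replicate number as a block. Some genes are not analysed here.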

Additional observations from a re-analysis of the deposited data

Results flagged for a closer look

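Values of single arrays were set against the others of their group for the 30 largest named changes, the genes read whatever their values, the array positions and the olfactory receptor mean. Of 84 groups of values 8 held an array far from the rest, where chance flags about 1 in 20. The array positions and the olfactory receptor mean were not among the 8. In 6 of the 8 the array was KO day 2 replicate 5. Its value was low for Fcrls (8.20 against 9.18 to 9.44), Itga6 (9.25 against 9.93 to 10.19) and Timp2 (9.33 against 9.94 to 10.13), and high for Inhba (10.45 against 8.74 to 9.05), Il1f9 (7.71 against 6.67 to 6.87) and S100a8 (7.26 against 6.72 to 6.87). In each of these genes it lay on the day 1 side of the other day 2 arrays. Cd28 was low on KO day 1 replicate 3 (5.40 against 5.66 to 5.67), and Lyz1 on KO day 2 replicate 4 (12.09 against 12.39 to 12.48).

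The change from day 1 to day 2 differed between KO and WT, by the test of the interaction, for Pf4 (KO 0.10, WT -0.63, KO minus WT 0.73) and Acp5 (KO 0.36, WT -0.27, KO minus WT 0.63), each with an adjusted p of 0.0165.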

How the results depend on the processing

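The 30 largest named changes in KO passed under each of the alternatives in which they could be fitted. Of the 123 named genes that passed, 48 passed in each of theirs, and 0 of these 123 turned their sign. Cd36 and Angptl4, which did not pass, had differences on both sides of 0. The number of genes that passed in KO (1723) was 948 to 2313 when 1 array was left out, and 1042 without day 1 replicate 1, 1037 without day 1 replicate 4, 948 without day 2 replicate 1 and 969 without day 2 replicate 2. Fitting just the 19 arrays of both genotypes gave 997 in KO, 1221 in WT (1931 with all arrays) and 0 for the interaction (2 with all arrays). With array weights it was 4283 in KO and 254 for the interaction, and with a fold of at least 1.5 as well, 306 in KO and 400 in WT. Leaving out 1 array gave 1243 to 2375 in WT, with 1284 without WT day 1 replicate 2 and 1243 without WT day 1 replicate 4, and 0 to 17 for the interaction. The interaction was 7 without KO day 2 replicate 5, 13 without WT day 2 replicate 4, 17 without WT day 2 replicate 6 and 4 with a trend and robust variances. It was 267 with WT day 2 replicates 1 to 3 as WT day 2, and 4 with replicates 4 to 6 or without WT day 1 replicate 4 or WT day 2 replicate 5. The cause of these moves was not tested. Among genes above the median level, 1392 of 1599 calls in KO were rises (87.1%), against 1209 of 1723.

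Replicate numbers are shared between the groups. After group means were removed, arrays with the same number correlated at 0.07, -0.022, 0.115 and 0.092 in KO and at -0.11, 0.09, 0.021 and -0.206 in WT, so the numbers were not taken as pairs. With replicate number as a block 3542 genes passed in KO, where day 2 replicate 5 has no partner and drops out of the contrast, 974 in WT and 85 for the interaction.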
